A study of Gallus gallus with 8 samples.

Results

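The core circadian clock genes of broiler liver were examined: the activators ARNTL, CLOCK and NPAS2, the repressors PER2, PER3, CRY1, CRY2 and CIART, and the transcriptional repressors NR1D2 and BHLHE40. These 10 genes were picked by symbol, with earlier results of the same comparison in view. Of them, 9 had a row with a group mean above 0, out of 20170 genes with a result. CIART matched no row by name and was not analysed here. The livers came from broiler chickens (Gallus gallus) labelled male and taken on day 46. Low density birds (treatment A) had a planned end density of 24.4 kg/m2 (5 lb/ft2). That of the high density birds (D) was 39.1 kg/m2 (8 lb/ft2). Each group had 4 RNA sequencing libraries, each made from equal amounts of RNA of 4 birds, so a library is a pool and not an animal. Strain, genotype and time of day are unstated in the sources used here. Whole liver was used, so fewer cells of a type and less RNA per cell cannot be told apart.

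The clock is a loop of transcription and translation that runs in nearly every cell. ARNTL (also called BMAL1) pairs with CLOCK, or with its relative NPAS2, and binds E-box sequences in the promoters of the PER and CRY genes. PER and CRY proteins gather in the nucleus and block that pair, which shuts off their own genes until they are degraded. Side loops add NR1D2 (REV-ERB beta), which represses ARNTL, and BHLHE40 (DEC1), which competes for E-boxes. In the liver this loop times the use of fuel around meals, and in birds it works beside clocks in the pineal gland, retina and hypothalamus. The levels of such transcripts can thus depend on the hour at which tissue is taken, which was not examined here.

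Most repressors of the loop had higher values at high density, while the activators CLOCK and NPAS2 lay close to 0 and ARNTL below it. The difference between repressors and activators was not tested. PER3, BHLHE40, CRY2 and PER2 were 1.61-fold, 1.51-fold, 1.33-fold and 1.25-fold higher in the authors' deposited table, and NR1D2 1.16-fold. CLOCK and NPAS2 differed by 1.03-fold and 1.04-fold in the authors' deposited table, and ARNTL and CRY1 had signed fold changes of -1.14 and -1.16. None of the 9 genes was called, that is, had an adjusted p under 0.05 in the authors' deposited table, against 0.273% of all genes with a result. An unadjusted p under 0.05 was listed for 4 of the 9, all higher and 0 lower, where the authors' deposited table has 2.46% of all genes higher and 3.12% lower at that limit. In all, 7 members were higher and 2 lower, beside 50.3% of all genes higher, and their median log2 fold change was 0.22 beside 0.001 for all genes in the authors' deposited table. The members were chosen on this same comparison, so these shares describe them and test nothing.

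Every value given for a gene comes from that table, which compares high with low density and holds 0 columns of values per library. The values of the single pools, their spread and the number of pools sharing a direction are therefore unknown here, as is the depth of each library. A positive log2 fold change is higher at high density. The standard errors and 95% intervals are implied ones, computed from each log2 fold change and its p-value as if from a Wald test, which is an assumption. The group mean is the higher of the 2 group means, in a unit the header does not name, and levels are not compared between genes. Where no call was made, the size a gene would have needed follows from its standard error and from 0.000119, the unadjusted p at which it would pass with all other p-values kept.

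**Figure D1:**
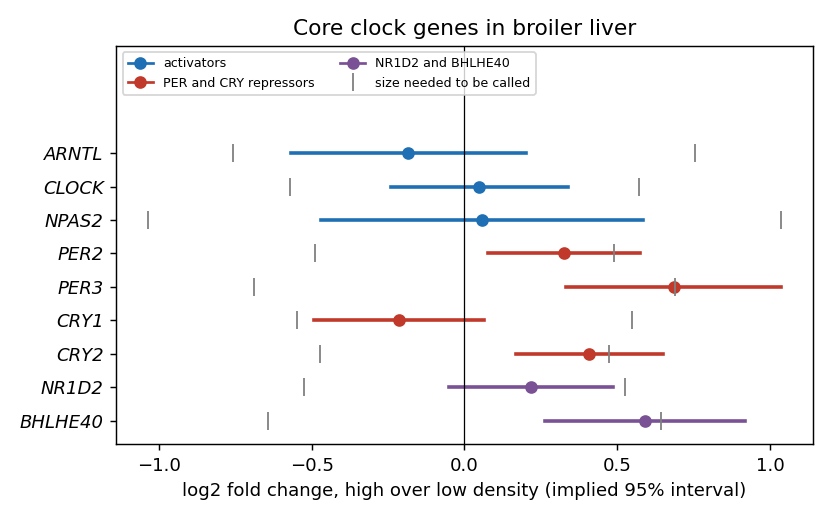
Log2 fold change of each core clock gene, high over low density (x axis), with the implied 95% interval as a bar and grey ticks at the size needed to be called at that standard error. PER3, at 0.68, lies closest to its tick at 0.69, and the intervals of the 3 activators, CRY1 and NR1D2 span 0.

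The period genes encode the proteins that carry the delay of the loop. PER3 (ENSGALG00000000573, GRCg6a chromosome 21, 291189 to 310409, minus strand) had the largest fold change of the 9 members. Its log2 change was 0.68 with an implied SE of 0.18 (95% interval 0.33 to 1.03), a p of 0.000133 and an adjusted p of 0.0516 in the authors' deposited table. It stood at rank 61 of all p-values, just beyond the 55 called genes, and needed 0.69 to be called. With the Benjamini-Hochberg adjustment over the 20170 genes with a result instead of all 23613 listed, its adjusted p was 0.0441, and 0.312% of genes passed. Over the expressed genes alone, those with a group mean of 1 or more, it was 0.0302, and 0.534% passed. At a deposited adjusted p under 0.1, PER3 was the 1 member among the 0.387% of genes that passed. PER3 thus lies on either side of the threshold by the choice of genes counted. In all, 66 of the 10867 genes with a group mean of at least 1 (0.607%) were higher by as much, PER3 included.

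PER2 (ENSGALG00000005521, chromosome 9, 5655084 to 5680030, minus strand) was higher by a smaller amount. This light-responsive period gene had a log2 change of 0.33, an implied SE of 0.13 (0.08 to 0.58), a p of 0.0105 and an adjusted p of 0.676 in the authors' deposited table. Its rank by p was 367. The intervals of PER2 and PER3 overlap from 0.33 to 0.58, and the difference between both genes was not tested. PER1 was looked up as well and matched no row.

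The cryptochromes, which bind PER proteins and hold the activators in check, had values on opposite sides of 0. CRY2 (ENSGALG00000008436, chromosome 5, 24183069 to 24201831, minus strand) had a log2 change of 0.41 (implied SE 0.12, 0.17 to 0.65), with a p of 0.000853 and an adjusted p of 0.178 in the authors' deposited table. CRY2 carried the smallest implied SE of the 9 genes, and a log2 change of 0.47 would have sufficed for a call. CRY1 (ENSGALG00000012638, chromosome 1, 53591410 to 53626354, minus strand) had a log2 change of -0.21 (implied SE 0.14, -0.49 to 0.06), a p of 0.132 and an adjusted p of 1.0 in the authors' deposited table. The 2 intervals do not overlap, and the difference between the paralogs itself was not tested, since both come from the same pools whose values are not known here. The CRY2 model shares 135 bases with SLC35C1 on the same strand, and how reads common to both were assigned is unstated in the sources used here. SLC35C1, a sugar nucleotide transporter gene, had a log2 change of 0.05 in the authors' deposited table.

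BHLHE40, a repressor that responds to nutrients and hormones besides the clock, had the second largest value. The gene (ENSGALG00000008308, chromosome 12, 18986975 to 18991321, plus strand) had a log2 change of 0.59 (implied SE 0.17, 0.26 to 0.92), a p of 0.000396 and an adjusted p of 0.113 in the authors' deposited table. It ranked 83 by p and needed 0.64 to be called. NR1D2 (ENSGALG00000011291, chromosome 2, 37152397 to 37175363, plus strand), a haem-binding nuclear receptor, had a log2 change of 0.22 (implied SE 0.14, -0.05 to 0.49) with a p of 0.11 and an adjusted p of 1.0 in the authors' deposited table. Its interval allows anything from a slight decrease to a 1.40-fold increase.

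The 3 activators had group means from 1.22 to 3.22 and no p under 0.05. ARNTL (ENSGALG00000005378, chromosome 5, 7820343 to 7864789, minus strand) had a log2 change of -0.18 (implied SE 0.20, -0.57 to 0.20, p = 0.35, adjusted p = 1.0) in the authors' deposited table. CLOCK (ENSGALG00000013793, chromosome 4, 65084415 to 65108758, plus strand), the partner of ARNTL, had one of 0.05 (implied SE 0.15, -0.24 to 0.34, p = 0.742, adjusted p = 1.0 in the authors' deposited table). NPAS2 (ENSGALG00000016774, chromosome 1, 134540472 to 134668511, plus strand), which can stand in for CLOCK, had a log2 change of 0.06 with the widest implied SE of the 9, 0.27 (-0.47 to 0.58), and in the authors' deposited table a p of 0.829 and an adjusted p of 1.0. At these standard errors a call would have needed a change of about 2.05-fold for NPAS2 and 1.69-fold for ARNTL. The ARNTL model shares 167 bases with BTBD10 on the opposite strand, and whether counting used strand is unstated in the sources used here. BTBD10 had a log2 change of -0.10 in the authors' deposited table.

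**Figure D2:**
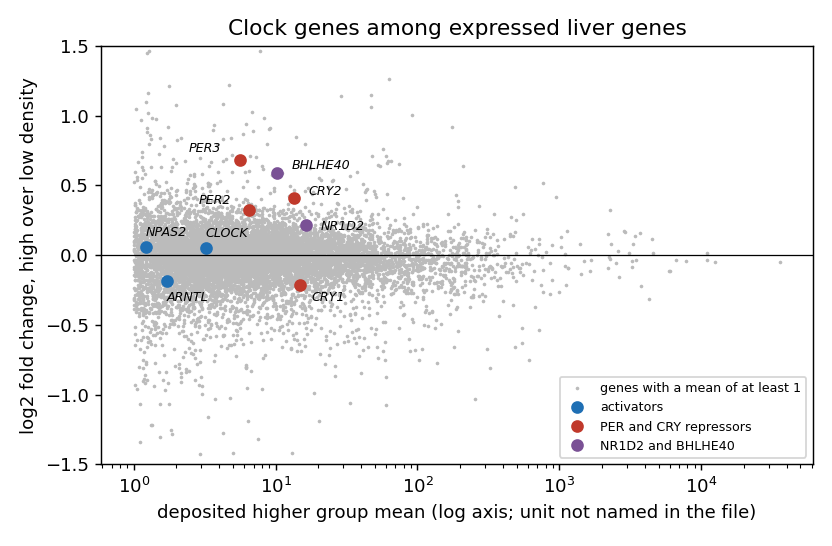
Log2 fold change, high over low density (y axis), against the deposited higher group mean (log x axis, unit not named) for 10867 genes whose mean was 1 or more (grey) and the 9 core clock genes (coloured). PER3, BHLHE40, CRY2 and PER2 lie above most grey points and CRY1 and ARNTL below 0, and 17 genes beyond 1.5 on either side are not drawn.

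Among expressed genes the interquartile range of log2 fold changes ran from -0.11 to 0.08 in the authors' deposited table. CLOCK and NPAS2 lay within that range, and the other 7 members outside it, 5 above and 2 below. At least as high a log2 fold change was listed for 97 expressed genes (0.893%) in the case of BHLHE40, 198 (1.82%) for CRY2, 316 (2.91%) for PER2 and 757 (6.97%) for NR1D2, each count including the gene itself. In the other direction, 1291 genes (11.9%) were at least as low as CRY1 and 1594 (14.7%) at least as low as ARNTL.

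Genes beside the clock genes on the chromosomes had values on both sides of 0. For each member the 5 nearest expressed genes on either side were looked at, 90 genes in all, of which 46 were higher and 44 lower with a median log2 change of 0.006 in the authors' deposited table. The 10 neighbours of PER3 ran from -0.19 to 0.10, although VAMP3, a vesicle fusion gene at -0.19, lies only 289 bases away . For BHLHE40 they ran from -0.21 to 0.16 in the authors' deposited table, and no neighbour of either gene had a p under 0.05. Of all genes 5.58% had a p under 0.05 in the authors' deposited table, of expressed ones 6.41%, and of the 90 neighbours 4. Among these were 3 of the 10 around PER2, where 1 was called (0.273% of all genes), ENSGALG00000020985, with a log2 fold change of 0.83 (adjusted p = 0.01 in the authors' deposited table), at 198439 bases from PER2. Around CRY2 the neighbours ran from -0.55 to 0.44 and 1 had a p under 0.05 in the authors' deposited table. These neighbours were picked by position after the members' values were known.

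**Figure D3:**
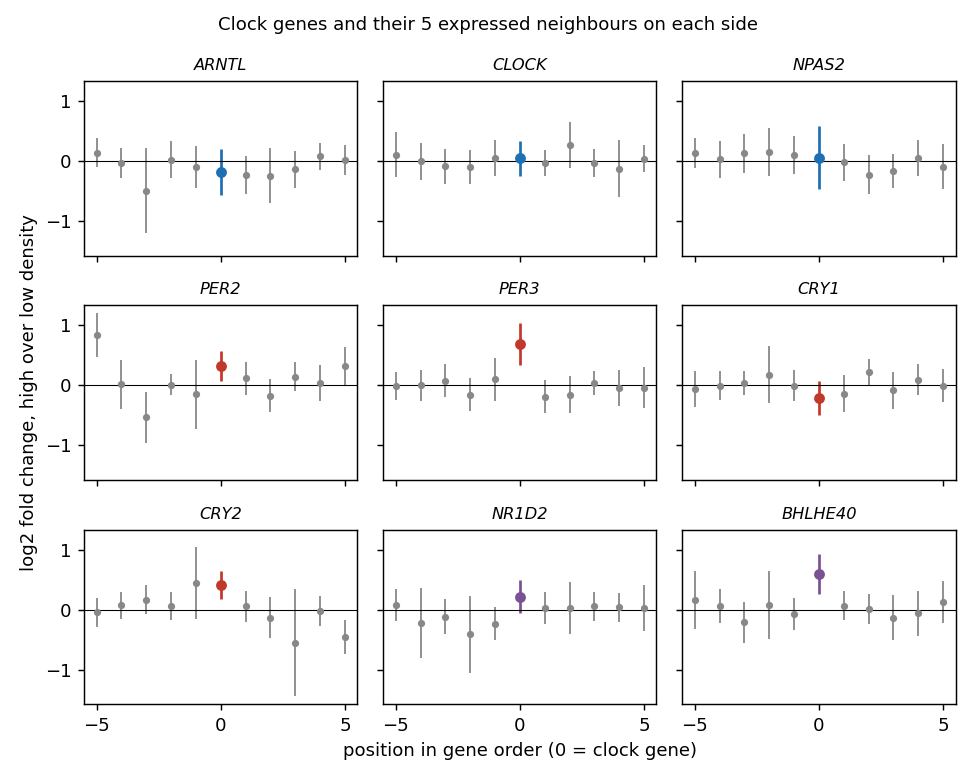
Log2 fold change, high over low density, of each core clock gene (coloured, position 0) and of the 5 nearest genes with a mean of at least 1 on each side (grey) in gene order, with implied 95% intervals. PER3 and BHLHE40 exceed all 10 of their neighbours, while around PER2 and CRY2 2 and 3 neighbours lie at least as far from 0.

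The median of the wider loop lay nearer to 0 than that of the members, which were picked with earlier results of this comparison known. The medians thus test no difference between core and wider loop. Of 16 further loop symbols listed, 13 had a value, 9 higher and 4 lower, with a median log2 change of 0.07 in the authors' deposited table. There 0 were called, against 0.273% of all genes, so 0 in so short a list says little. An unadjusted p under 0.05 was listed for 4 (30.8%, against 5.58% of all genes). BHLHE41 (DEC2), the paralog of BHLHE40, had a log2 change of 0.30 (p = 0.0489, adjusted p = 1.0), and ARNTL2, the paralog of ARNTL, one of 0.31 (p = 0.0303, adjusted p = 0.928) in the authors' deposited table. ARNTL and ARNTL2 thus had opposite signs, a difference that was not tested. Among the factors that read D-box sequences, the activator HLF had a log2 change of 0.28 (p = 0.0159, adjusted p = 0.749) and the repressor NFIL3 one of -0.32 (p = 0.0417, adjusted p = 1.0) in the authors' deposited table. TEF, another such activator, had one of 0.07 in the authors' deposited table (implied SE 0.14), and DBP matched no row. NR1D1 (REV-ERB alpha), closely related to NR1D2, had a value of 0.14 with an adjusted p of 1.0 in the authors' deposited table. The value of RORB, 1.60, rests on a group mean of 0.0034 and has an implied SE of 2.34 in the authors' deposited table, so it carries no information on direction.

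Regulators of the stability and activity of clock proteins were split. Of 33 listed, 28 had a value, 12 higher and 16 lower, with a median log2 change of -0.02 in the authors' deposited table. There 0 were called, against 0.273% of all genes, and 3 (10.7%) had a p under 0.05, against 5.58% of all genes. PPARGC1A, a coactivator of ROR receptors that is induced by fasting in mammals, had a log2 change of -0.77 (implied SE 0.26, p = 0.00337, adjusted p = 0.399 in the authors' deposited table). USP2, a deubiquitinase that acts on clock proteins in mammals, had one of 0.36 (p = 0.0388, adjusted p = 1.0), and SIRT1, a deacetylase of PER2 and ARNTL in mammals, one of -0.24 (p = 0.0497, adjusted p = 1.0) in the authors' deposited table. Casein kinase genes CSNK1D (-0.02) and CSNK1E (-0.11), whose products phosphorylate PER proteins, were near 0 in the authors' deposited table, and these 2 were picked for their role after their values were seen.

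Genes under clock control in the mammalian liver were evenly split. Of 30 symbols listed, 24 had a value, 12 higher and 12 lower, with a median log2 change of 0.03 in the authors' deposited table. There 0 were called, against 0.273% of all genes. The 1 member (4.17%, against 5.58% of all genes) with a p under 0.05 was PCK1, which encodes the gluconeogenic enzyme phosphoenolpyruvate carboxykinase. Its log2 change was 1.15 with an implied SE of 0.43 (p = 0.00736, adjusted p = 0.604 in the authors' deposited table).

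**Figure D4:**
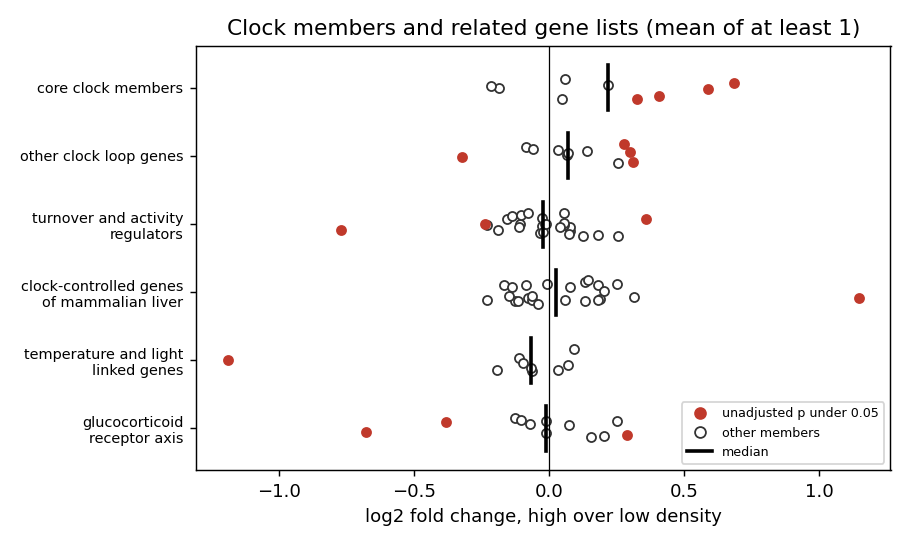
Log2 fold change, high over low density (x axis), of the core clock members and of 5 related gene lists, drawn where the group mean was 1 or more, with the median as a bar and genes with an unadjusted p under 0.05 in red. The median of the core clock members is 0.22, and the medians of the other lists run from -0.07 to 0.07. The core members were picked with earlier results of the same comparison known.

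Albumin (ALB) and apolipoprotein A-I (APOA1), 2 of the hepatocyte markers, had the highest group means of all genes in the authors' deposited table, at ranks 1 and 2 on its unnamed scale, while CPS1 had a mean of 0.815. Of the 14 hepatocyte markers 9 were higher, with a median log2 change of 0.04, and 0 were called, against 0.273% of all genes. CYP2C18, at 0.48, was the 1 hepatocyte marker with a p under 0.05 (p = 0.0393 in the authors' deposited table). Markers of several other cell types lay mostly on one side of 0. All 11 T and NK cell markers with a value were lower (median -0.48), 5 of them at a p under 0.05 (3.12% of all genes were lower at that limit) and 1 called (0.273% of all genes), GNLY, which fell (log2 fold change -0.58, adjusted p = 0.0396 in the authors' deposited table). Heterophil markers were higher in 8 of 10 cases (median 0.74) and erythroid markers in 7 of 8 (median 0.48), with 0 called. Among those with a group mean of at least 1 the medians were 0.62 and 0.43. Cholangiocyte markers were lower in 6 of 8 (median -0.27), stellate and fibroblast markers in 7 of 9 (median -0.25) and macrophage markers in 6 of 6 (median -0.07), with 0 called in the authors' deposited table. A p under 0.05 was listed for 5 heterophil, 3 erythroid, 3 cholangiocyte, 3 stellate and fibroblast and 0 macrophage markers in the authors' deposited table, against 5.58% of all genes. Not all of these shared the direction of their list. Of the heterophil ones 4 were higher and 1 lower, LYZ, with a log2 change of -1.43 in the authors' deposited table. Of the erythroid ones 2 were higher and 1 lower, HBZ, at -2.21 with a group mean of 0.375. Of the cholangiocyte ones 2 were lower and 1 higher, ONECUT1, at 0.32 in the authors' deposited table. The 3 stellate and fibroblast ones were all lower. Summed levels of these lists per group cannot be had without values per library, and no marker with a row was listed at 0. Their part in the values of the clock genes was not tested.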

How the data were processed

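The authors deposited 1 table for the comparison of the 4 high density with the 4 low density libraries. Per the file headers it gives for each of 23613 Ensembl genes the higher group mean, a signed fold change and its log2, and a p-value with false discovery rate and Bonferroni adjustments. The deposited group mean is a score without a named unit. Coordinates are on GRCg6a, per the submitters' processing notes. Aligner, counting, normalization and test: not given in the sources used here. In 3443 genes every value is 0, and these were treated as without a result. A recomputed Benjamini-Hochberg adjustment over all 23613 genes differed from the deposited one by at most 2.4e-05.

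The deposited adjusted p under 0.05 was the call, as the design foresaw for a table without values per library, and no test of the groups was run. The implied SE is the size of the log2 change over the z value that its two-sided p stands for. The code for adjustment, SE and 95% intervals was run on simulated data that were drawn under the Wald assumption. That run checks the code only, and whether the assumption holds for the deposited p-values was not tested. Each pool holds other birds, so the spread between pools includes that between birds, averaged over 4. Whether the 4 pools of a group came from separate pens was not examined here. All 9 members with a row are described; of the other lists, genes with an unadjusted p under 0.05 are named, or the one with the smallest p. NR1D1, RORB, TEF, CSNK1D and CSNK1E are named beyond that rule, and of the markers the called one, ALB, APOA1, CPS1, CYP2C18, LYZ, HBZ and ONECUT1. Members, lists and tests were chosen with earlier results of these data known. List symbols were matched on the table's names, which 60.6% of genes with a result carry, and a symbol without a match says nothing about detection. CCRN4L, an older symbol of NOCT, was listed beside NOCT and counts as a symbol without a value. Some genes, such as NOCT, NAMPT, TSC22D3, KLF9 and CRY4, stand in more than 1 list, so the lists are not separate. Python 3.11.15, pandas 2.3.3, numpy 2.4.6, scipy 1.17.1 and matplotlib 3.10.9 were used. No sequences are shown.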

Additional observations from a re-analysis of the deposited data

How the results depend on the processing

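The count of clock members called was 0 and became 1, PER3, under 3 alternatives: at a deposited adjusted p under 0.1, where 0.387% of genes passed, and with the adjustment over genes with a result (adjusted p = 0.0441) or over those with a mean of 1 or more (0.0302), all from p-values of the authors' deposited table. Both recomputed adjustments count fewer genes, and 63 and 58 genes then passed in place of 55. The other settings could not raise the count of 0. Bonferroni and an adjusted p under 0.01 are stricter, and all 9 members have a mean of 1 or more. Leaving out the 2 members that overlap another gene model, chosen after seeing the data, could only lower a count. The number of higher members was 7 throughout, and 6 of 7 without those 2. The median log2 fold change was 0.22 and lay between 0.22 and 0.23. Centring on the median of expressed genes (-0.008) kept the sign of all 9 members. Of 40 alternative values, some of which could not change, 35 stayed the same in direction and call. The 5 that passed a threshold all stem from PER3. They are the 3 counts named here and its adjusted p under 2 of the same settings. No paired analysis was possible because the table holds no values per library. For the same reason no library was left out, and no count test or other pseudocount was run. Depth is unknown.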

Other observations

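Genes tied to temperature, light and cyclic AMP signalling, which can set the clock, were split between both directions. Of 17 listed, 12 had a value, 5 higher and 7 lower, with a median log2 change of -0.06 in the authors' deposited table. There 0 were called, against 0.273% of all genes. The 9 with a group mean of at least 1 had a median of -0.07. The others had group means of 0.035 or less and implied SEs of 1.246 or more, so their values carry no information on direction. SIK1, a kinase that in mammals holds back the CREB coactivators and is itself induced by CREB, had a log2 change of -1.19 (implied SE 0.38, p = 0.00166, adjusted p = 0.269 in the authors' deposited table). SIK1 was the 1 member with an unadjusted p under 0.05 (8.33%, against 5.58% of all genes).

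Genes of the glucocorticoid receptor axis, which carries stress and daily hormone signals to the liver, were split. Of 16 listed, 14 had a value, 6 higher and 8 lower, with a median log2 change of -0.01 in the authors' deposited table. There 0 were called, against 0.273% of all genes. An unadjusted p under 0.05 was listed for 3 (21.4%, against 5.58% of all genes). The pyruvate dehydrogenase kinase PDK4 had a log2 change of -0.68 (implied SE 0.24, adjusted p = 0.434), the transcription factor CEBPD one of -0.38 (0.16, adjusted p = 0.739) and the kinase SGK1 one of 0.29 (0.14, adjusted p = 1.0) in the authors' deposited table.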
